A study of Mus musculus with 3 samples.

Results

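The 10 genes described here belong to the unfolded protein response and the integrated stress response: Hspa5, Xbp1, Atf4, Ddit3, Ddit4, Trib3, Chac1, Asns, Ppp1r15a and Atf3. They were listed by name as genes of endoplasmic reticulum (ER) stress and amino acid stress with earlier results of these data known, and all 10 were found among the 22238 genes listed in all 3 libraries. RNA-Seq had been done on 3 cell populations of female mice on a C57BL/6J background, 10 to 12 weeks old and labelled WT. All mice had experimental autoimmune encephalomyelitis (EAE), a model of multiple sclerosis, induced with myelin oligodendrocyte glycoprotein peptide in complete Freund's adjuvant and with pertussis toxin, and were killed at days 14 to 15. Bone marrow monocytes were CD45+ CD11b+ Ly6Chi Ly6G- CD11c- cells. Spinal cord monocytes were Ly6Chi Ly6G- and also CD45+ CD11b+ CD64+, and the spinal cord monocyte-derived antigen-presenting cells (APCs) differed from them in the gate by being Ly6Clow/-. Each population was sequenced as 1 library, pooled from 18 mice in 3 experiments for each spinal cord population and from 13 mice in 2 experiments for the bone marrow, and no library came from mice without EAE. With 1 library per population no difference has a replicate check, no p-value is given, and every interval covers counting error only, which PCR copies can make too narrow. Where values are listed, the bone marrow monocytes are called marrow monocytes and the spinal cord monocytes cord monocytes. Gene positions are those of GENCODE M21 on GRCm38, the build of the files.

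The unfolded protein response is the set of signals that a cell sends from the ER when proteins there fail to fold. Sensors in the ER membrane splice Xbp1 mRNA, release the transcription factor ATF6, or, through the kinase PERK, phosphorylate the translation factor eIF2. Other kinases phosphorylate eIF2 when amino acids are short, when viral RNA is present or when heme is lacking, and the shared outcome is called the integrated stress response: translation falls in general while the protein ATF4 is made, and ATF4 and its partner CHOP switch on genes of amino acid supply, of feedback and of cell death. Monocytes and macrophages are also known to induce several of these genes, Atf3 among them, after signals from pattern recognition receptors. Splicing of Xbp1, translation of Atf4 and phosphorylation of eIF2 cannot be read from reads summed per gene.

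The promoters of the 10 genes were searched for the short elements through which these factors are known to act, because the genes that rose together in the comparisons below include known ATF4 targets. The sequences are those of RefSeq on GRCm38.p6, from 250 bases before to 50 bases after the RefSeq start, and all 10 genes had one. The C/EBP-ATF response element TGATGNAA was found in 4 of the 10 genes (Atf3, Chac1, Asns and Trib3) and in 3.97% of all 32851 promoters, counting both strands. The ER stress response element, CCAAT and CCACG with 9 bases between them, was found in Hspa5 alone of the 10 and in 0.119% of all promoters. The cAMP response element TGACGTCA was found in Ppp1r15a alone and in 1.79% of all promoters, and the unfolded protein response element TGACGTGG in none of the 10 and in 0.676% of all promoters. No match overlapped another, and a match describes these letters only. The 5 promoters with a match before the start are shown, each as the 200 bases up to the start on the strand of the gene, with the match in capitals. The window of Hspa5 lies at chr2:34771890-34772089 (+ strand), Atf3 at chr1:191183334-191183533 (- strand), Chac1 at chr2:119351042-119351241 (+ strand), Asns at chr6:7693210-7693409 (- strand) and Ppp1r15a at chr7:45526269-45526468 (- strand).
Hspa5: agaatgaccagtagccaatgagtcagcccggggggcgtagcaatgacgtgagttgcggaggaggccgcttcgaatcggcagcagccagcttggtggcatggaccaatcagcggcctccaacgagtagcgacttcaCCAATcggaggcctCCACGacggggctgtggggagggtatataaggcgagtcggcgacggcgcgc
Atf3: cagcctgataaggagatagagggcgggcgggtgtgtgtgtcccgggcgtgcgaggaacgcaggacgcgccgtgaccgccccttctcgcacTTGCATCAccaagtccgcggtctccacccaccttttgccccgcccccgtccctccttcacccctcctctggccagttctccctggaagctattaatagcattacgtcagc
Chac1: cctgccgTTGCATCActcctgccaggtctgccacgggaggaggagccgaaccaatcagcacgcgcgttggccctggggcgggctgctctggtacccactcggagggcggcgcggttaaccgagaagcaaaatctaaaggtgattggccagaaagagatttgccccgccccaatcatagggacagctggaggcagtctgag
Asns: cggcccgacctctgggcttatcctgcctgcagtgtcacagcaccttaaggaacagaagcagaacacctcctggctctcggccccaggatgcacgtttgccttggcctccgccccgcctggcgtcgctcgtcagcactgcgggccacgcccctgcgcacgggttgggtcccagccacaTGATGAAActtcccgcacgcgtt
Ppp1r15a: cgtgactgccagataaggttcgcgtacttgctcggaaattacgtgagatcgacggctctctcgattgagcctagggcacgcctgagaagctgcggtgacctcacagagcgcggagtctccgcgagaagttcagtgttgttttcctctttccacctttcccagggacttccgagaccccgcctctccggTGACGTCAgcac
The matches begin 65 bases before the start in Hspa5, 110 in Atf3, 193 in Chac1, 23 in Asns and 12 in Ppp1r15a. Atf3 and Chac1 carry the same letters, which are the reverse strand of the C/EBP-ATF element. In Trib3 the match TTACATCA lies after the RefSeq start, at chr2:152344039-152344046 (- strand). It lies before the start of the GENCODE gene, which is at 152344032. The GENCODE genes begin upstream of some RefSeq starts, so that 120 of the 200 bases shown for Hspa5, 45 for Asns, 13 for Chac1 and all 200 for Atf3 fall inside the annotated gene.

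Levels are given as TPM (a share of all transcripts), a measure per effective length, rescaled to the same sum over the common genes, and a gene was taken as active where rescaled TPM was over 3. The genes listed in all 3 libraries held 32115707 reads in the marrow monocytes, 26116588 in the cord monocytes and 28209327 in the APCs. The sorted identities were checked on marker genes, by the TPM summed over each list. The 6 monocyte markers summed to 8149 in the marrow monocytes, 5860 in the cord monocytes and 3254 in the APCs. None was at 0, and they were led by Ly6c2 in both monocyte libraries and by Csf1r in the APCs. The 6 did not move together: Ccr2 had 1629, 299 and 139, and Csf1r had 374, 676 and 1134. In spinal cord over bone marrow monocytes 4 of the 6 had a log2 fold change above 0, and the median was 0.57. The 5 APC markers summed to 180.6, 8647 and 21510 in the same order, led by H2-Ab1 in the marrow monocytes and by Cd74 in both spinal cord libraries. Markers of other cells were also detected. The 6 microglia markers summed to 12.8, 86.7 and 226, the 4 T cell markers to 0.347, 42.2 and 61.3, the 6 neutrophil markers to 996, 170.0 and 354, and the 4 markers of granulocyte-monocyte progenitors to 630.3, 62.5 and 22.9. Of these, Sall1 and Slc2a5 of the microglia and Cd3g and Trac of the T cells were at 0 reads in bone marrow monocytes. Markers of central nervous system macrophages, conventional dendritic cells, oligodendrocytes, astrocytes and endothelium summed to between 2.31 and 72.9 per list and library. The part of such cells in the results was not tested, and in pooled cells a smaller share of a cell type cannot be told apart from less RNA per cell.

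**Figure D1:**
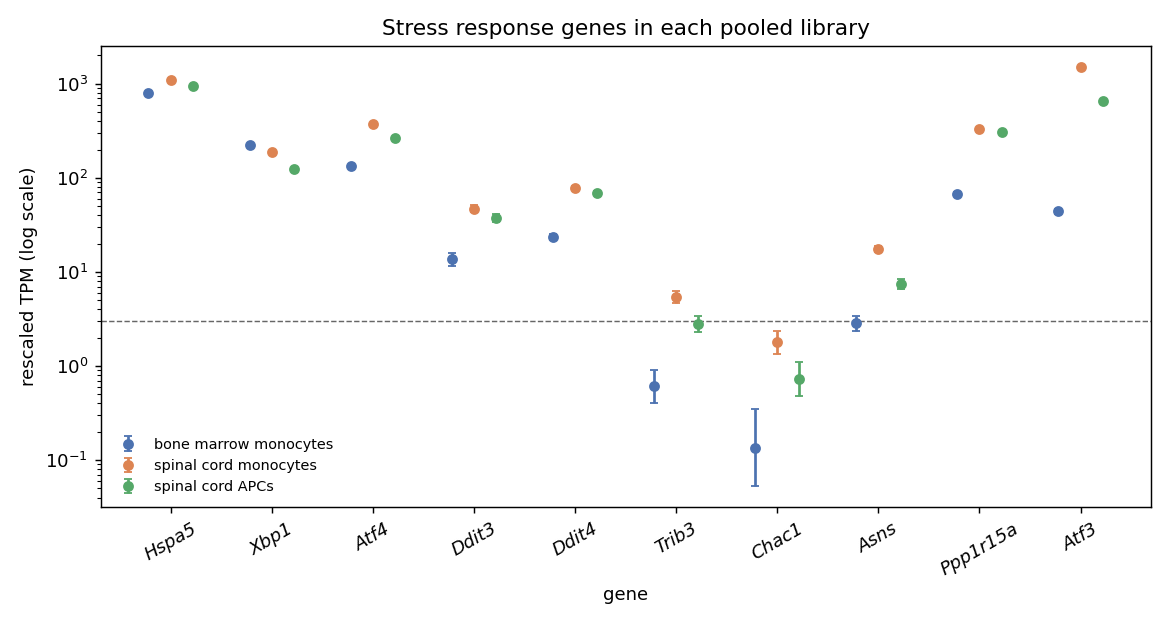
Rescaled TPM (log scale) of the 10 genes in the 3 populations, each point 1 pooled library with its 95% Wilson interval of counting error. Atf3 moves from 43.9 in bone marrow monocytes to 1499 in spinal cord monocytes, Hspa5 and Xbp1 move little, and Chac1 stays below the dashed line at 3 in every library.

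Within each library the 10 genes covered a wide range of levels. In bone marrow monocytes the order of rescaled TPM was Hspa5, Xbp1, Atf4, Ppp1r15a, Atf3, Ddit4, Ddit3, Asns, Trib3 and Chac1, from 799.6 down to 0.136. In spinal cord monocytes Atf3 stood highest at 1499, above 98.8% of the active genes of that library, and the order went on with Hspa5, Atf4, Ppp1r15a, Xbp1, Ddit4, Ddit3, Asns, Trib3 and Chac1. In APCs Hspa5 was again highest and Atf3 second, Ppp1r15a stood just above Atf4, and the order of the other 6 was that of spinal cord monocytes. The 95% Wilson intervals of neighbours in these orders did not overlap in any of the 3 libraries. In the plot of TPM by library, Hspa5, Xbp1, Atf4, Ppp1r15a and Atf3 change places among themselves, and the other 5 genes keep their order.

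The first comparison, spinal cord against bone marrow monocytes, asks which of these genes differ between monocytes in the inflamed spinal cord and those still in the marrow. Of the 10 genes, 7 rose (Atf4, Ddit3, Ddit4, Trib3, Asns, Ppp1r15a and Atf3), none fell, Hspa5 and Xbp1 were not called, and Chac1 was not active. A gene was called where the 98% interval of its fold change, taken from reads, lay beyond a 2-fold change and the gene was active in at least 1 of the 2 libraries. Over all 10072 active genes, 13.8% were called higher and 10.7% lower. The median log2 fold change of the 9 active genes of the 10 was 2.14, beside -0.14 over all active genes. When rescaled TPM with a pseudocount of 0.1 replaced the scaled reads, 1391 genes passed a plain 2-fold change upward and 2137 downward. The main comparison called 1386 and 1073 with its interval, and a plain 2-fold change of scaled reads gave 1567 and 1437. With rescaled TPM the same 7 genes were called. The 7 calls shrink to 6, without Atf4, if the libraries are assumed to vary with a coefficient of variation (CV) of 0.2. With a CV of 0.4 they shrink to 3 (Trib3, Asns and Atf3).

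Hspa5 (chr2:34771970-34777547, + strand) encodes BiP, the chaperone of the ER lumen that binds unfolded proteins and keeps the stress sensors inactive. Its rescaled TPM was 799.6 in the marrow monocytes, 1109 in the cord monocytes and 956 in the APCs. It was abundant in every library and highest in spinal cord monocytes. Its log2 fold change in spinal cord over bone marrow monocytes was 0.86 (98% interval 0.83 to 0.88), short of a 2-fold change. Xbp1 (chr11:5520659-5525893, + strand) encodes the transcription factor that IRE1 activates by splicing its mRNA, and is known for its high level in plasma cells. Its rescaled TPM was 223 in the marrow monocytes, 187 in the cord monocytes and 123.5 in the APCs. Its log2 fold change in the first comparison, 0.04 (98% interval -0.02 to 0.09), took the other sign under total reads (-0.15) and under rescaled TPM (-0.25), so no direction can be given. Those scalings moved the median of all active genes by -0.18 and -0.26 as well. The 7 plasma cell and B cell markers used summed to 198.7, 87.2 and 127.1 rescaled TPM in the marrow monocytes, cord monocytes and APCs, led by Ighm in the first and by Sdc1 in the others. The markers did not move together: Ighm had 191.8, 21.9 and 40.1 in that order, and Sdc1 had 0.402, 62.6 and 83.8. In the first comparison Ighm was called lower (log2 -2.76) and Sdc1 higher (7.44). Mzb1, of the same list and named after its values were seen, held at most 1 read in any library. The part of such cells in the Xbp1 values was not tested.

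Atf4 (chr15:80255184-80257541, + strand) encodes the transcription factor at the centre of the integrated stress response. Its rescaled TPM was 132.5 in the marrow monocytes, 374 in the cord monocytes and 268 in the APCs. Atf4 mRNA was therefore higher in both spinal cord populations, and it rose 3.49-fold in spinal cord over bone marrow monocytes (98% interval 3.35 to 3.64). The call of Atf4 was lost with an assumed CV of 0.2 or 0.4. Ddit3 (chr10:127290774-127296288, + strand) encodes CHOP, the partner of ATF4 that is known for promoting cell death under lasting stress. It had 157 reads in the marrow monocytes, 497 in the cord monocytes and 397 in the APCs, or rescaled TPM of 13.6, 47.2 and 37.05. Its rise in the first comparison was 4.41-fold (98% interval 3.58 to 5.47).

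Atf3 (chr1:191170296-191218039, - strand), a transcription factor gene of the same bZIP class that both stress and innate immune signals induce, showed the largest change among the 10. It had 1335 reads in the marrow monocytes, 43874 in the cord monocytes and 23505 in the APCs, and its rescaled TPM was 43.9, 1499 and 650.1. Bone marrow monocytes were thus far below both spinal cord populations, and spinal cord monocytes were the highest. The first comparison gave a rise of 45.9-fold (98% interval 43.0 to 49.0), which was larger than that of 97.3% of active genes. This call held under each of the 15 alternative settings, with log2 values between 5.06 and 5.53.

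The feedback genes rose as well. Ppp1r15a (chr7:45522916-45526268, - strand) encodes GADD34, which brings a phosphatase to eIF2 and so ends the block on translation. Its rescaled TPM was 67.7 in the marrow monocytes, 333 in the cord monocytes and 309.7 in the APCs, and it rose 6.10-fold in the first comparison (98% interval 5.82 to 6.39). Trib3 (chr2:152337422-152344032, - strand) encodes a pseudokinase that binds ATF4 and restrains it. It had 23 reads in the marrow monocytes, 183 in the cord monocytes and 103 in the APCs, with rescaled TPM of 0.609, 5.40 and 2.78, so that it was active in spinal cord monocytes only. It rose 10.8-fold (98% interval 6.72 to 18.7), and the wide interval follows the 23 reads. Ddit4 (chr10:59949669-59951834, - strand) encodes REDD1, an inhibitor of mTORC1 that stress, low oxygen and glucocorticoids are known to induce. Its rescaled TPM was 23.6 in the marrow monocytes, 78.0 in the cord monocytes and 69.6 in the APCs, and it rose 4.14-fold (98% interval 3.76 to 4.57).

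The remaining members, Asns and Chac1, act on amino acids and glutathione. Asns (chr6:7675169-7693254, - strand) encodes asparagine synthetase. It had 106 reads in the marrow monocytes, 578 in the cord monocytes and 274 in the APCs, and rescaled TPM of 2.85, 17.5 and 7.505. It lay under the activity threshold in bone marrow monocytes alone and rose 7.58-fold in the first comparison (98% interval 5.97 to 9.75). Chac1 (chr2:119351229-119354381, + strand) encodes an enzyme that degrades glutathione. It had 4 reads in the marrow monocytes, 47 in the cord monocytes and 21 in the APCs, and its rescaled TPM of 0.136, 1.78 and 0.726 never passed 3. Its read ratio in the first comparison was 14.2-fold with a 98% interval from 5.34 to 53.9. It would be called if no TPM threshold were set.

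**Figure D2:**
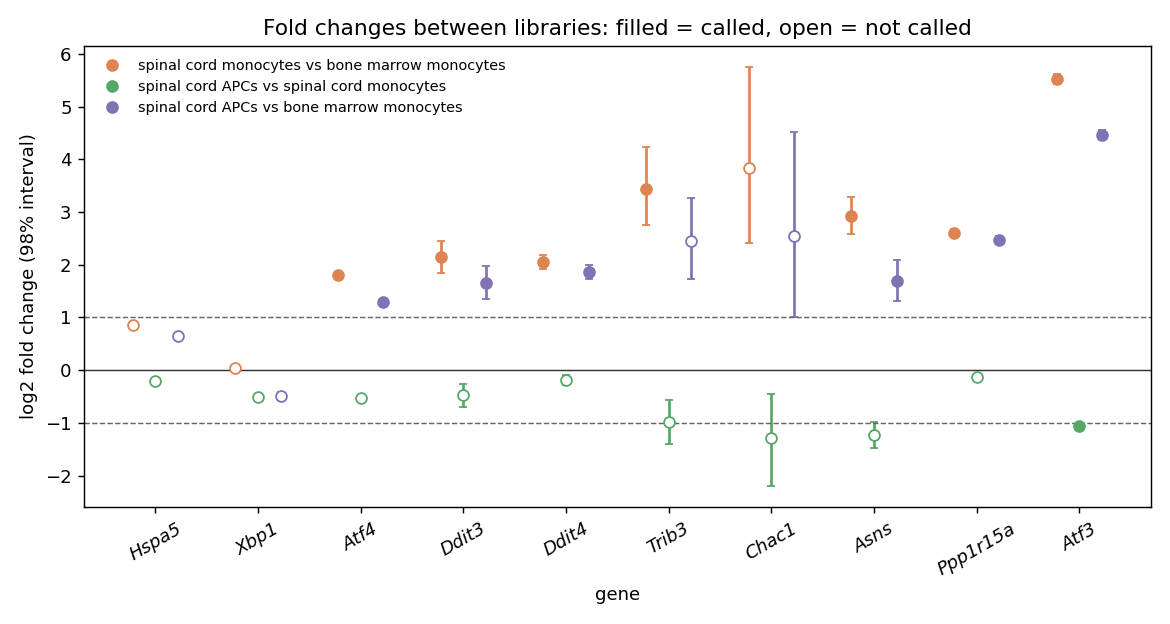
Log2 fold change of each of the 10 genes in the 3 comparisons, from scaled reads, with 98% intervals of counting error, filled where called and open where not, and dashed lines at a 2-fold change. The spinal cord over bone marrow values run from 0.04 for Xbp1 to 5.52 for Atf3, while every APC over spinal cord monocyte value is below 0 and only that of Atf3 is called.

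Genes that respond to tissue handling were also higher in the first comparison. The spinal cords were digested with collagenase D and DNase I for 30 min at 37 °C, and the cells passed through a Percoll gradient. The bone marrow was flushed, and its monocytes were enriched with an isolation kit before sorting. Tissue and these steps of preparation, digestion among them, cannot be told apart. Of 16 genes known to respond to digestion or handling, 14 were higher in spinal cord monocytes and none was lower, where 13.8% of all active genes were called higher and 10.7% lower. Their median log2 fold change was 3.04, above the median of the 10 stress genes. Their TPM summed to 4014 in the marrow monocytes, 15960 in the cord monocytes and 13430 in the APCs. Junb, an immediate early gene, had rescaled TPM of 345 in the marrow monocytes, 1738 in the cord monocytes and 1727 in the APCs, and Zfp36, which encodes an mRNA-destabilizing protein, had 502, 1703 and 1623. Fos was high in all 3 libraries, with 1665, 2143 and 1769, and was not called. Between the spinal cord populations, which were prepared alike, none of the 16 was called and their median was -0.27. Of all active genes, 1.93% were called higher and 1.70% lower there.

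The second comparison, APCs against spinal cord monocytes, asks what differs between monocytes and the cells derived from them within the same tissue. Of the 10 genes, Atf3 fell, none rose, 8 active genes were not called and Chac1 was not active. Over all 9734 active genes, 1.93% were called higher and 1.70% lower. The median log2 fold change of the 9 active genes of the 10 was -0.52, beside -0.04 over all active genes, and all 10 values were below 0. Under TPM as deposited, which covers a wider set of genes in the monocyte libraries, Hspa5 (0.01), Ddit4 (0.06) and Ppp1r15a (0.13) were above 0. That scaling also moved the median of all active genes by 0.19, so no direction relative to all genes can be read from this change of sign.

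Atf3 was 2.08-fold lower in APCs than in spinal cord monocytes (98% interval 2.04 to 2.12), and 2.7% of active genes had a lower log2 fold change. The call rests close to the threshold: it was lost with total reads (log2 -1.01), with TPM as deposited (-0.97) and with an assumed CV of 0.2 or 0.4. The effective length of Atf3 was 1510 bases in the spinal cord monocyte file and 1734 in the APC file, which listed a smaller set of genes, and reads divided by effective length gave a log2 value of -1.12. Asns, with 578 reads in the cord monocytes and 274 in the APCs, was 2.35-fold lower (98% interval 1.98 to 2.79), just short of a call. The near end of that interval lay just inside a 2-fold change, and Asns passed where a plain 2-fold change was required.

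Trib3, with 183 reads in the cord monocytes and 103 in the APCs, gave -0.98 on the log2 scale (98% interval -1.40 to -0.57). Chac1 had 47 and 21 reads and a log2 value of -1.29 (98% interval -2.20 to -0.45). Chac1 and Asns thus had lower values than Atf3 and Trib3 a slightly higher one, and none of these 3 was called. Atf4 (-0.52), Xbp1 (-0.52) and Ddit3 (-0.48) formed a second set, with intervals within a 2-fold change. Hspa5 (-0.21), Ddit4 (-0.19) and Ppp1r15a (-0.14) moved least. The 6 monocyte markers had a median log2 fold change of -0.85 in this comparison and the 5 APC markers one of 1.33, and their part in these values was not tested.

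**Figure D3:**
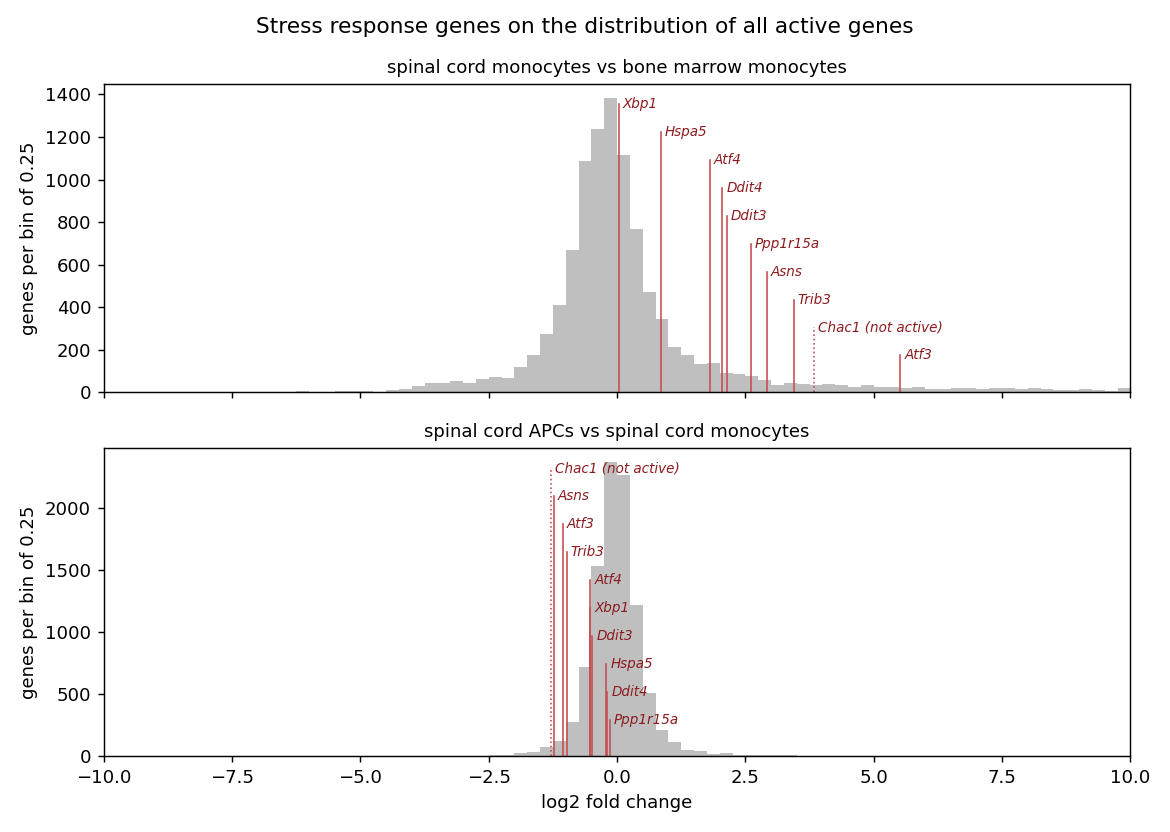
Number of active genes per bin of 0.25 in log2 fold change, for spinal cord over bone marrow monocytes (top) and for APCs over spinal cord monocytes (bottom), with the end bins holding all values beyond, and the 10 genes as lines. In the top panel the 10 genes run from Xbp1 at 0.04 to Atf3 at 5.52, and in the bottom panel all 10 lie below 0, from -1.29 to -0.14.

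The third comparison, APCs against bone marrow monocytes, shares its libraries with the other comparisons and is no independent evidence. Of the 10 genes, 6 were higher in APCs (Atf4, Ddit3, Ddit4, Asns, Ppp1r15a and Atf3), none was lower, Hspa5 and Xbp1 were not called, and Trib3 and Chac1 were not active. Over all 10190 active genes, 14.0% were called higher and 11.8% lower. The median of the 8 active genes of the 10 was 1.68 on the log2 scale, beside -0.17 over all active genes. With rescaled TPM and a pseudocount of 1, 1315 genes passed a plain 2-fold change upward and 2433 downward. Scaled reads gave 1616 and 1560 at a plain 2-fold change, and 1426 and 1199 were called with the interval. The Atf3 level in APCs was 22.1-fold that of bone marrow monocytes (98% interval 20.7 to 23.6) and that of Ppp1r15a 5.53-fold (98% interval 5.28 to 5.80). Ddit4 was 3.63-fold higher, Asns 3.23-fold, Ddit3 3.16-fold and Atf4 2.43-fold. Xbp1 had a log2 value of -0.48 and Hspa5 one of 0.64, both within a 2-fold change. Trib3 had a log2 value of 2.46 (98% interval 1.73 to 3.27) and Chac1 one of 2.54 (98% interval 1.002 to 4.51), and both would be called with no TPM threshold. With an assumed CV of 0.2 the 6 calls shrink to 2, Ppp1r15a and Atf3, and with 0.4 to Atf3 alone.

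The genes around these members were described with 7 pathway lists. The list of partners and effectors of ATF4 and CHOP, mostly bZIP transcription factors and genes of growth arrest or cell death, had the highest median of the 7 in the first comparison. Of its 12 active genes, 9 rose and none fell, where 13.8% of all active genes were called higher and 10.7% lower, and the median log2 fold change was 1.80, beside -0.14 over all active genes. The 9 calls shrink to 5 with an assumed CV of 0.2 and to 2 with 0.4. Cebpb, a C/EBP factor, had rescaled TPM of 252 in the marrow monocytes, 949 in the cord monocytes and 639 in the APCs, and its log2 fold change was 2.23. Nfe2l2, the NRF2 factor of the oxidative stress response, had 103, 373 and 357 and a log2 fold change of 2.08. Pmaip1, which encodes the death-promoting BH3-only protein NOXA, rose by 4.06 on the log2 scale, and Gdf15, a stress cytokine, had 2, 147 and 202 reads and a log2 value of 6.27 (98% interval 4.59 to 8.90). The others that rose were the bZIP factor genes Jdp2 (2.23) and Atf5 (1.51), Sesn2 (1.74), of a stress-induced inhibitor of mTORC1, and Bbc3 (1.86) and Bcl2l11 (1.28), of the BH3-only proteins PUMA and BIM. Ppp1r15b, the constitutive paralog of Ppp1r15a, had rescaled TPM of 118, 119.8 and 64.7 and was not called. Cebpg, a C/EBP partner named after its values were seen, was the only active gene of the list below 0 in the first comparison. Its rescaled TPM was 49.8 in the marrow monocytes, 24.8 in the cord monocytes and 34.05 in the APCs, and its log2 value of -1.03 (98% interval -1.13 to -0.93) was not called. In the second comparison none of the 12 was called, where 1.93% of all active genes were called higher and 1.70% lower. The lowest values were those of Bbc3 (-1.08) and Bcl2l11 (-1.01).

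Amino acid transporters and enzymes were mixed, and their counts stand beside shares of 13.8% called higher and 10.7% lower over all active genes. Of 6 active transporters, 3 rose in the first comparison and none fell, with a median of 1.21. Slc7a11 and Slc3a2, which encode the subunits of the cystine/glutamate exchanger, both rose. Rescaled TPM of Slc7a11 was 0.697 in the marrow monocytes, 36.4 in the cord monocytes and 42.4 in the APCs, and that of Slc3a2 was 52.3, 443 and 394. Both were lowest in bone marrow monocytes, with log2 fold changes of 6.81 and 3.46 in the first comparison. Slc7a5, which encodes a transporter of large neutral amino acids and also pairs with the Slc3a2 product, rose by 1.59 on the log2 scale. Slc38a2 (0.83) and Slc1a5 (-0.29) were not called. Of 7 active enzymes of amino acid synthesis and one-carbon metabolism, Got1 (3.69), an aspartate aminotransferase, and Aldh18a1 (1.48), of proline synthesis, rose, and Psat1 (-1.47), of serine synthesis, fell. Mthfd2 (0.71) and Shmt2 (-0.25) were not called, and the median was 0.71. Of 20 cytosolic aminoacyl-tRNA synthetases, which include known ATF4 targets, none rose and Vars fell (-1.12), with a median of -0.07. Nars (0.37), Sars (0.07) and Cars (1.12) were not called. In the second comparison no gene of these 3 lists was called, where 1.93% of all active genes were called higher and 1.70% lower.

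In the ER lists, 3 genes were called in the first comparison, where 13.8% of all active genes were called higher and 10.7% lower. Of 18 active ER chaperones and folding enzymes, Ero1l, the ER oxidase, rose (log2 fold change 1.95), Dnajc3 (-1.33), a co-chaperone that inhibits PERK, and Txndc5 (-1.74), a protein disulfide isomerase, fell, and the median was -0.19. The abundant Calr, Hsp90b1, Ppib and P4hb had values of 0.58, -0.21, -0.12 and -0.31 and were not called. Calr had rescaled TPM of 761 in the marrow monocytes, 971 in the cord monocytes and 1234 in the APCs, and was called higher in the third comparison alone. Of 15 active genes of ER-associated degradation and translocation, none was called in the first comparison and the median was -0.38. In the second comparison 1.93% of all active genes were called higher and 1.70% lower. There Sec61g, a subunit of the translocon, was called higher, at 43.3 in spinal cord monocytes and 109.8 in APCs. No other gene of the 7 lists was called in that comparison. The other translocon subunit genes Sec61a1 (-0.37) and Sec61b (-0.58) were lower in value and not called.

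Of the 10 sensors and their partners, 1 fell in the first comparison, a share near the 10.7% called lower over all active genes. This was Eif2ak3, which encodes PERK (-1.38, 98% interval -1.51 to -1.25), at rescaled TPM of 34.6 in the marrow monocytes, 10.8 in the cord monocytes and 10.04 in the APCs. None rose, and the median was -0.54. The number of sensors that fell depended on the setting: it was 4 with all genes of the monocyte files, 3 with TPM as deposited or rescaled, 2 with total reads and 0 with an assumed CV of 0.2 or 0.4. Eif2ak4, which encodes GCN2, the kinase of amino acid shortage, had 5.38, 9.86 and 10.6, a log2 value of 1.16 that was not called, and was higher in the third comparison (1.27). Ern1, which encodes IRE1, had 33.4, 15.3 and 12.5 and was lower in the third comparison (-1.21) and not called in the others. The abundant Atf6b (-0.32) and Eif2s1 (0.09), which encodes the alpha subunit of eIF2, were not called.

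**Figure D4:**
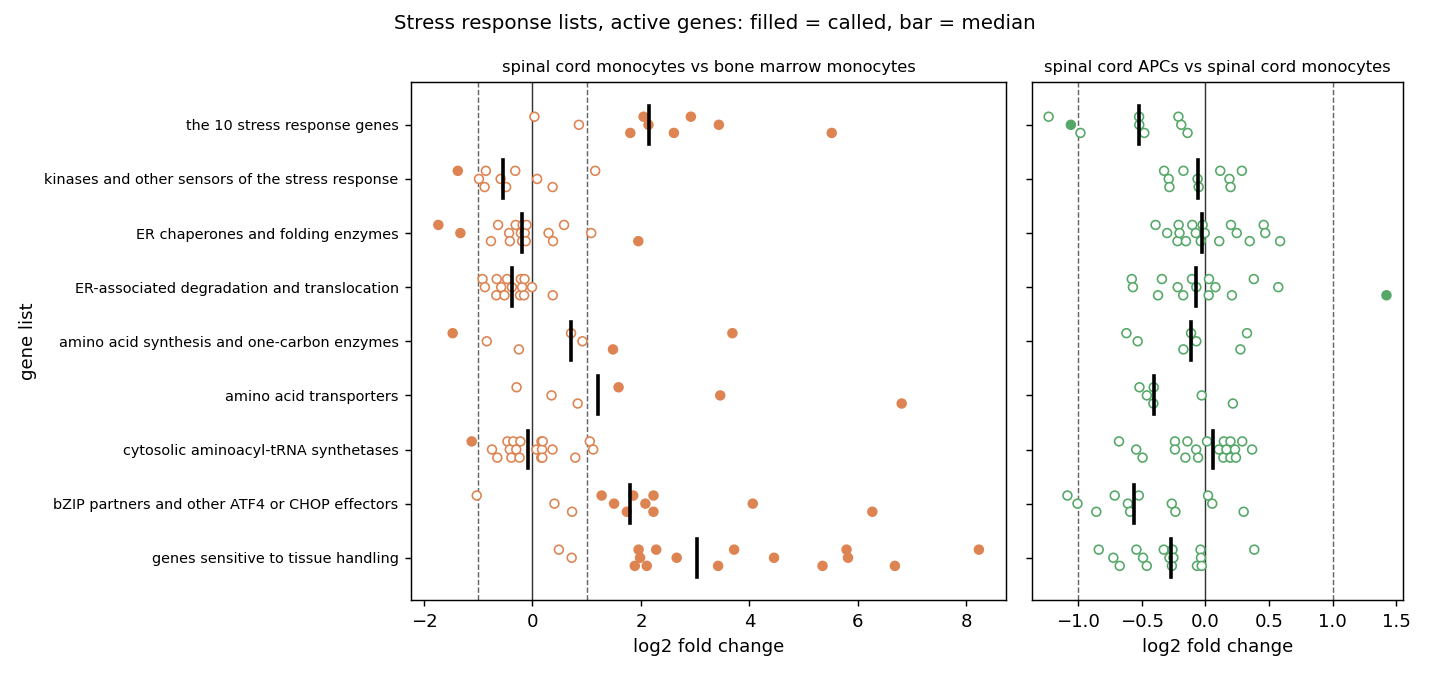
Log2 fold change of the active genes of the 10 stress genes, 7 pathway lists and the handling-sensitive list, for spinal cord over bone marrow monocytes (left) and APCs over spinal cord monocytes (right, on a different scale), filled where called, with the median as a black bar. On the left the medians are 2.14 for the 10 genes, 1.80 for the ATF4 and CHOP effectors and 3.04 for the handling-sensitive genes, and lie between -0.54 and 0.71 for the ER, synthetase, sensor and synthesis lists, with transporters at 1.21.

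The patterns nearest to that of Atf3 over the 3 libraries were sought among 8470 genes active in each of them, by the distance between pairs of log2 fold changes (first and second comparison). Serpina3g, of a protease inhibitor family, was nearest, at a distance of 0.09, with rescaled TPM of 7.93 in the marrow monocytes, 310.2 in the cord monocytes and 160.4 in the APCs. Rab20 (0.27), of a small GTPase, and Csrnp1 (0.32), of a nuclear protein, came next. For Chac1, the gene with the lowest value in the second comparison, the nearest were Dok2 (0.29), of an adaptor of tyrosine kinase signals, Smox (0.30), of spermine oxidase, and Kcna3 (0.38), of a potassium channel. Chac1 itself was not active in any library. Its 98% intervals, 2.42 to 5.75 and -2.20 to -0.45, were wider than these distances, so the order of its neighbours is uncertain. With 3 libraries such a likeness is a description of 2 numbers per gene.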

How the data were processed

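Sorted cells of each population were pooled and sequenced as 1 library of paired reads. Per the labels and the study's methods, the authors ran Salmon 0.14.1 with GENCODE vM22 on mm10, summed the transcripts of each gene, and deposited estimated counts of reads (not normalized), TPM (per effective length and scaled to a fixed total) and effective lengths in bases. Each monocyte file lists 54432 genes and the APC file 22242. The transcript set behind the APC file therefore differed, and it is not given in the sources used here. Its source field names the bone marrow, while its title and tissue field name the spinal cord, and it was used as a spinal cord library.

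The 22238 common genes were analysed. Estimated counts, as deposited, were rounded, and each library's TPM was brought to a common total over these genes. The log2 ratio of 2 libraries was the median of gamma posteriors of reads plus 1, scaled by median-of-ratios factors from all 3 libraries, after the definition of GFold that the study used. A gene was called where the interval between percentiles 1 and 99 excluded changes under 2-fold and either library had rescaled TPM over 3. The call rule was tested on simulated data that held counting error alone, not the spread between libraries. Counts of single genes have 95% Wilson or exact Poisson intervals, and the floor was 3 reads. A marker fixed for the plasma cell and B cell list is not reported here and was left out of its sums. No statistical test of the conditions was possible. The members and all lists were chosen with earlier results of these data known. Of each pathway list, the most abundant genes, the 2 with the largest change in the first and in the second comparison and those called could be named, and of marker lists the 3 most abundant. Promoters came from RefSeq on GRCm38.p6 and gene positions from GENCODE M21. No transcript of another gene matched a member over 200 bases at 90% identity. Alternatives were other scalings, thresholds, intervals, pseudocounts, transcript sets and an assumed spread between libraries. TMM factors came from edgeR 4.0.16 in R 4.3.3, figures from matplotlib 3.10.9, and all else from Python 3.11.15 with scipy 1.17.1, pandas 2.3.3 and numpy 2.4.6.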

Additional observations from a re-analysis of the deposited data

Results flagged for a closer look

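The files list Ddit3 under a second, short gene identifier, which the comparisons do not use. It lies at chr10:127290829-127293753 (+ strand, GRCm38), inside the span of the main Ddit3 gene. Over 105 bases it is identical to the longest transcript of the main gene, so reads from that stretch cannot be told apart. It held 0 estimated reads in each monocyte library and 5.82 in the APCs, above the floor of 3 reads. Its effective length of 15.2 bases in the APC file turned these few reads into a rescaled TPM of 18.4. The reads were added to those of the main identifier as an alternative chosen after the data were seen, and no Ddit3 value changed its call.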

How the results depend on the processing

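The 10 fold changes in 3 comparisons were recomputed under 433 combinations of gene, comparison and setting. Direction and call were kept in 400, a call was lost in 18 and gained in 6, and 9 took the other sign. The number of stress genes called in spinal cord over bone marrow monocytes, 7, was 6 with an assumed CV of 0.2 and 3 with 0.4. In APCs over spinal cord monocytes the call of Atf3 alone became 0 calls with total reads, with a CV of 0.2 or 0.4 and with TPM as deposited, and 2 calls (Atf3 and Asns) with a plain 2-fold change or with rescaled TPM at a pseudocount of 1 or 0.1. In APCs over bone marrow monocytes 6 calls became 2 with a CV of 0.2 and 1 with 0.4. The first-comparison value of Xbp1 took the other sign with total reads (-0.15), effective lengths (-0.0092), all genes of the monocyte files (-0.21), TPM as deposited (-0.24) and rescaled TPM (-0.25 at either pseudocount), and 3 second-comparison values did so with TPM as deposited (Hspa5 0.0143, Ddit4 0.0639 and Ppp1r15a 0.13). The cause was not tested, but total reads, all genes of the monocyte files and rescaled TPM at a pseudocount of 1 also moved the median of all active genes by -0.18, -0.25 and -0.26 in the first comparison, and TPM as deposited moved it by 0.19 in the second. Over all genes, the first comparison gave 1386 higher and 1073 lower calls, 623 and 220 with a CV of 0.4, 2623 and 1178 with no TPM threshold, and 1145 and 1505 with all genes of the monocyte files. The second gave 188 and 165, 42 and 14 with a CV of 0.4, and 326 and 302 with a plain 2-fold change of scaled reads. Rescaled TPM at a pseudocount of 1, also at a plain 2-fold change, gave 274 and 528. Among the ATF4 and CHOP effectors, total reads, a plain 2-fold change, all genes of the monocyte files and rescaled TPM at a pseudocount of 0.1 each added 1 lower call. Counts in the 7 lists stayed within 1.5 times in 241 of 301 recomputations. Chac1, with 4 to 47 reads, and Trib3, with 23 to 183, have the widest intervals of the 10. No paired analysis was possible because each population was 1 pooled library, and no library could be left out.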
